A study of Arabidopsis thaliana with 9 samples.

Results

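The HD-ZIP IV genes encode plant transcription factors with a homeodomain joined to a leucine zipper and a START domain, and most members of the family are known for expression in the outermost cell layer. Of the 32833 genes in the deposited count table, 10 were taken by gene identifier: ATML1, PDF2, HDG1, HDG2, HDG5, HDG7, HDG11, HDG12, ANL2 and GL2. All 10 passed the filter on low counts, as did 19698 genes in all. The other 6 genes of the family (HDG3, HDG4, FWA, HDG8, HDG9 and HDG10) are given for comparison.

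The tissue was Arabidopsis thaliana callus, the mass of dividing cells that cut plant tissue forms on hormone medium, and all groups were of ecotype Col-0 with no further treatment. The 3 groups were a pnet1 knockout, a line that overexpresses PNET1, and wild type (WT), with 3 libraries of each. Per the labels' protocols, pieces of hypocotyl from dark-grown seedlings were kept for 4 days on callus induction medium and 10 days on shoot induction medium before total RNA was extracted for strand-specific mRNA libraries. PNET1 sits in the nuclear envelope membrane of plant cells, and the design asks what its loss and its excess do to transcript levels. The labels name neither the mutant allele nor the promoter of the overexpression construct, and they list 1 mutant and 1 overexpression line. Nothing in them places the replicates in separate cultures, so the p-values rest on a spread between samples that may be only technical.

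In Arabidopsis, ATML1 and PDF2 act redundantly to specify the epidermis, and plants that lack both fail to form a normal shoot surface. These factors bind an element called the L1 box, which lies in the promoters of genes expressed in the outer layer, including ATML1 and PDF2 themselves. Other members act on particular outcomes in or beneath that layer: HDG2 on stomata, GL2, HDG11 and HDG12 on leaf hairs, ANL2 on pigment and wax, and HDG1 on the cuticle.

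The L1 boxes near the members are shown because they are the sequence element these proteins are known to bind. Both forms of the element, TAAATGCA and TAAATGTA, were searched on both strands of the RefSeq genome TAIR10.1, from 1000 bases upstream of each gene start to the start codon. The search found 8 boxes in 5 of the 10 members, with 3 in ATML1, 2 in HDG2 and 1 each in PDF2, HDG5 and ANL2. HDG1, HDG7, HDG11, HDG12 and GL2 had no match of these letters in that window. The window runs to the start codon, so its length differs: it was 1137 to 3357 bases in the members, with a median of 1742, and had a median of 1160 bases over 27443 protein-coding genes, of which 4854 (17.7%) had a box in it. Each line below reads 5′ to 3′ on the gene's own strand, with the box in capitals, and opposite-strand boxes appear as their reverse complement.
ATML1 leader, chr4:11555154-11555161: ttcgataatcaTAAATGCAatgcaccctct
PDF2 leader, chr4:2482361-2482368: ttagatcatcaTAAATGCAttgcaccctct
ATML1 upstream, chr4:11554530-11554537: ttataacagtaTAAATGTAtaatgaggacc
HDG2 upstream, chr1:1519000-1519007: tatctaatagaTAAATGTAagtctcatagg
HDG5 leader intron, chr5:19031246-19031253: ttcatgagcaaTAAATGTAtttttatcacc
ANL2 upstream, opposite strand, chr4:304661-304668: ttgtcaaaaaaTGCATTTAaccaaaaaaat

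The first pair lies in the untranslated leader exons of ATML1 and PDF2, 115 and 79 bases after the gene start. The windows shown are identical at 27 of 30 bases, which include the 8 bases of the box that the search required. ATML1 and PDF2 are both on chromosome 4 and share 84.2% of aligned coding bases. The ATML1, HDG2 and ANL2 boxes upstream of the gene lie 509, 107 and 56 bases before its start. Their wider surroundings are given for 168, 168 and 156 bases, so that the base composition around each box can be read.
ATML1, chr4:11554430-11554597: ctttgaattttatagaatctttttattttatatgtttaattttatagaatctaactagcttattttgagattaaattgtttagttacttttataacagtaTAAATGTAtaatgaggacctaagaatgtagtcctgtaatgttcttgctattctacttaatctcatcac
HDG2, chr1:1518940-1519107: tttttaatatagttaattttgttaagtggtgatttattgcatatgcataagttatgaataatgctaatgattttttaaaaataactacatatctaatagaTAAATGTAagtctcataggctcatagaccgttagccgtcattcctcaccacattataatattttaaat
ANL2, chr4:304613-304768: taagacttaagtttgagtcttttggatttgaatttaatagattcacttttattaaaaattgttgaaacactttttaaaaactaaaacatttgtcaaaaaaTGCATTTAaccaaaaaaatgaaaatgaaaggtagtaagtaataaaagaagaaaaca

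Within 1000 bases upstream of the gene start, 3 of the 10 members (30.0%) had a box on either strand, against 4329 of 27443 protein-coding genes (15.8%). Of 7 genes that earlier work names as targets of these factors, 4 had one (57.1%), and 5 of 30 cuticle genes did (16.7%). A match is a run of letters and was not tested as a binding site. The box of FDH, a target that encodes an enzyme of fatty acid elongation, is shown because the L1 box is best known from genes of this kind.
FDH, chr2:11173325-11173332: aaaaattgtaaTAAATGCAaacataagatc

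**Figure D1:**
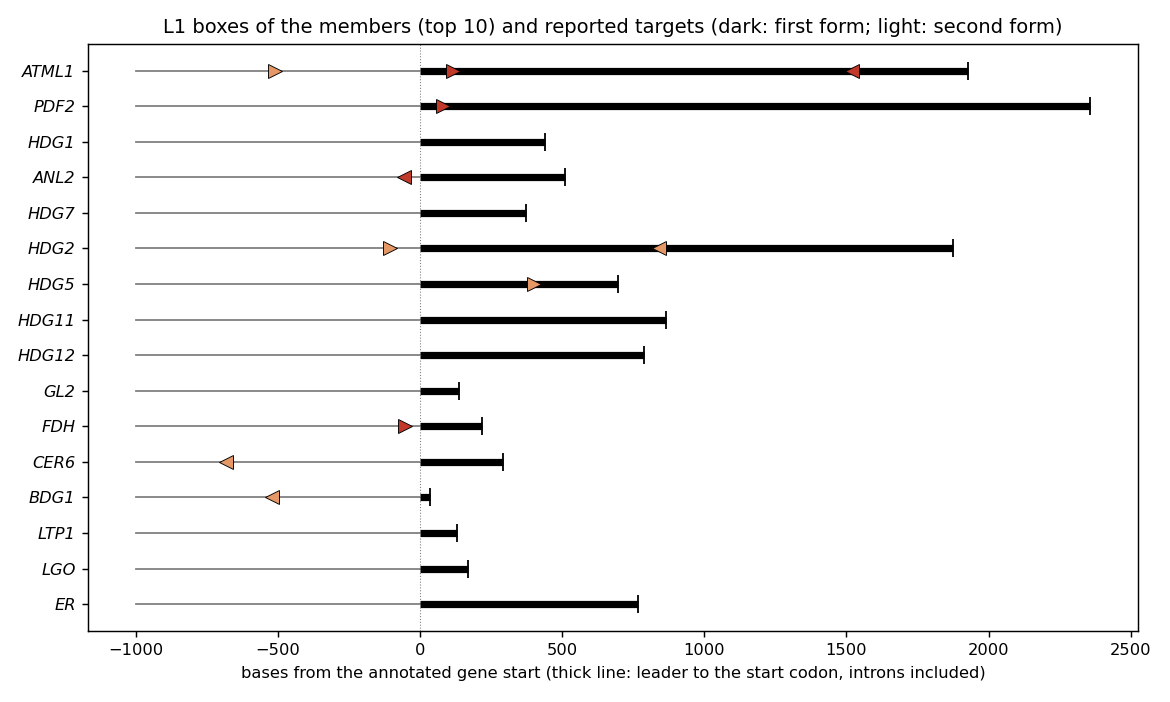
Position of each L1 box (triangles, pointing along the strand that carries it) in bases from the annotated gene start, for the 10 members above 6 of the reported targets; the thin line is 1000 bases upstream and the thick line the leader up to the start codon, introns included. Boxes lie in 5 of the 10 members, and the dark triangles near the start of ATML1 and PDF2 are the pair whose windows, box included, match at 27 of 30 bases.

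Total counts ranged over 16890848 to 19493969 a library. PNET1 transcript, taken as AT1G07970, followed the labels in all 9 libraries: it had 1.54, 1.12 and 1.37 CPM (read counts per library scaled to a common total, with TMM factors) in pnet1 callus, 4590, 4910 and 5210 CPM in PNET1 overexpression callus and 32.7, 31.4 and 28.9 CPM in WT callus. Replicates differed by more than counting noise in every group, and the widest gap was between overexpression replicates 1 and 3. Within the overexpression group, replicate 1 was the lowest library for 8 of the 10 members and replicate 3 the highest for 8. Within WT, replicate 3 was the lowest for 6 members, and within pnet1, replicate 1 was the lowest for 8 and replicate 2 the highest for 7.

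In pnet1 callus, 8 of the 10 HD-ZIP IV genes fell and 0 rose, against 17.4% of all tested genes lower and 12.6% higher (edgeR quasi-likelihood test, Benjamini-Hochberg adjusted p under 0.05). The count of 0 was also 0 at an unadjusted p under 0.05, in DESeq2 and in limma-voom. ATML1, PDF2, ANL2, HDG2, HDG5 and GL2 fell at least 2-fold, HDG1 and HDG12 by less, and HDG7 and HDG11 did not pass the test. For 9 of the 10, all 3 pnet1 libraries lay below all 3 WT libraries, as they did for 24.2% of tested genes. The members' median log2 fold change was -1.25, and that of all tested genes was 0.00. When GC content and gene length were corrected for by an offset, an alternative chosen after seeing the data, 60.5% of called genes were higher in pnet1, against 42.0% without it, and the members' median was -1.22.

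In PNET1 overexpression callus the log2 fold changes of 9 of the 10 members were above 0, and the 10 values lay between -0.09 and 0.60. HDG1, HDG5 and HDG12 rose and 0 members fell, against 5.97% of tested genes higher and 5.24% lower (edgeR, adjusted p under 0.05). At an unadjusted p under 0.05, 6 members were higher and 0 lower. DESeq2 called 4 higher and 0 lower, and limma-voom 3 higher and 0 lower. The shares of all tested genes given above are for edgeR adjusted p only, so these other counts have no share beside them. All 3 overexpression libraries lay above all 3 WT libraries for 5 members, as for 14.0% of tested genes. The median log2 fold change of the members was 0.42, beside 0.00 for all tested genes. These calls depended on single libraries: 7 members were called without overexpression replicate 1, and 0 without overexpression replicate 2, overexpression replicate 3 or WT replicate 3. The comparisons of pnet1 and of overexpression share the 3 WT libraries.

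**Figure D2:**
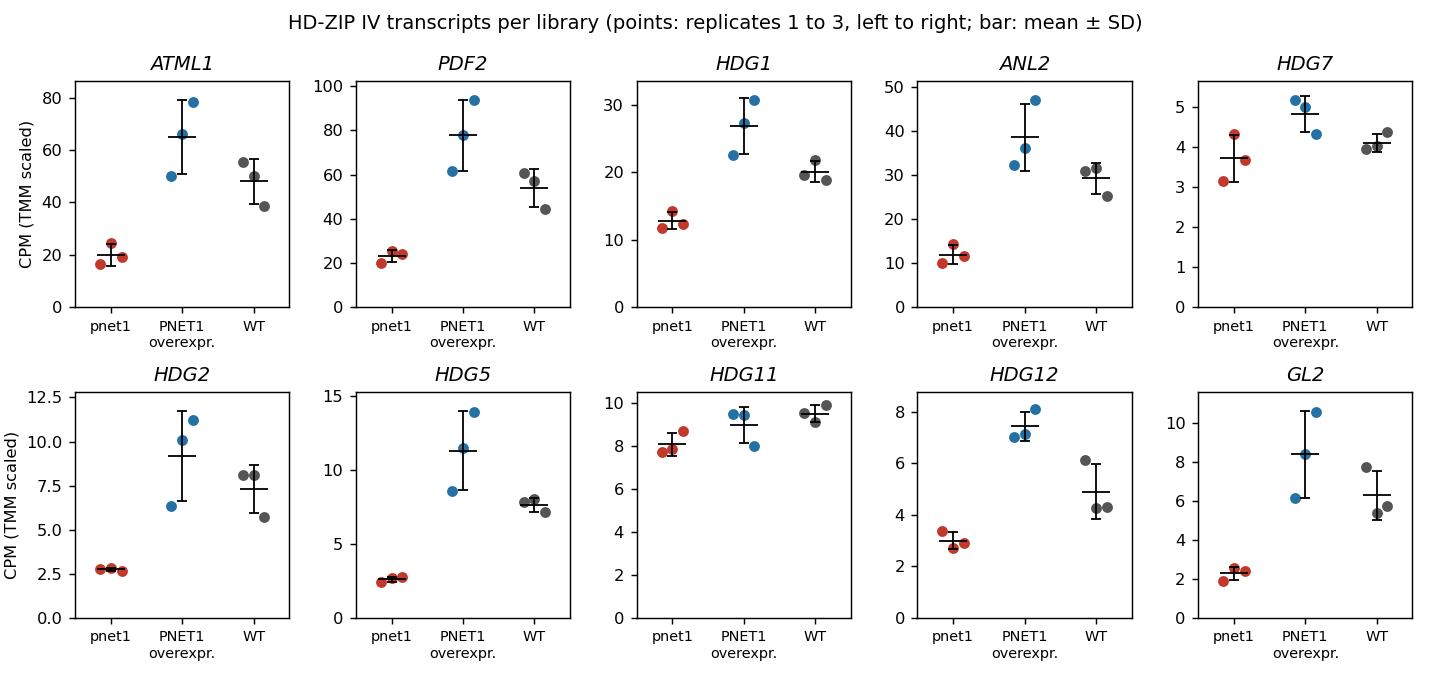
CPM of each HD-ZIP IV gene in every library (points), with the mean and SD of the 3 libraries of a group as bars and an axis that starts at 0 in each panel. The pnet1 points lie below all WT points for every gene but HDG7, and the overexpression points lie above all WT points for PDF2, HDG1, HDG5, HDG12 and ANL2.

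ATML1 (AT4G21750, chr4:11555039-11560771, plus strand, 9 coding exons) acts with PDF2 in specifying the epidermis. It had 16.3, 24.5 and 19 CPM in pnet1 callus, 50.2, 66.1 and 78.5 CPM in PNET1 overexpression callus and 55.5, 49.9 and 38.7 CPM in WT callus. Every pnet1 library was below every WT library, while overexpression replicate 1 lay within the WT range. In pnet1 ATML1 fell 2.41-fold (log2 fold change -1.27, SE 0.25, edgeR adjusted p = 0.00906). With overexpression it did not pass the test (log2 fold change 0.44, SE 0.22, edgeR adjusted p = 0.273).

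PDF2 (AT4G04890, chr4:2476390-2482447, minus strand, 10 coding exons) is the partner of ATML1 in specifying the epidermis. Its levels were 20, 25.3 and 23.8 CPM in pnet1 callus, 61.6, 77.8 and 93.8 CPM in PNET1 overexpression callus and 60.9, 57.0 and 44.5 CPM in WT callus. The 3 groups did not overlap, although overexpression replicate 1 was close to WT replicate 1. PDF2 fell 2.35-fold in pnet1 (log2 fold change -1.23, SE 0.21, edgeR adjusted p = 0.00453). Its log2 fold change with overexpression was 0.52 (SE 0.19, adjusted p = 0.133 by edgeR), and it was called without overexpression replicate 1 (0.0348). ATML1 and PDF2 kept a similar FPKM ratio in all libraries, between 0.641 and 0.776 in pnet1, 0.653 and 0.682 with overexpression, and 0.698 and 0.731 in WT. Their longest exact shared coding run, 28 bases, is shorter than the reads the design text gives.

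ANL2 (AT4G00730, chr4:299261-304612, minus strand, 9 coding exons) affects anthocyanin in the layer beneath the leaf epidermis and wax on the surface. It had 10.0, 14.2 and 11.5 CPM in pnet1 callus, 32.3, 36.1 and 47.0 CPM in PNET1 overexpression callus and 30.8, 31.6 and 25.2 CPM in WT callus. The pnet1 libraries were all low, and the overexpression libraries were all above WT with replicate 1 only just so. The fall in pnet1 was 2.45-fold (log2 fold change -1.29, SE 0.18, edgeR adjusted p = 0.00101). With overexpression the log2 fold change was 0.40 (SE 0.16, adjusted p = 0.157 by edgeR), and DESeq2 gave an adjusted p of 0.0356. Without overexpression replicate 1 the edgeR adjusted p was 0.0499.

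HDG1 (AT3G61150, chr3:22630331-22635155, plus strand, 9 coding exons) acts on cuticle genes and is the member closest to ANL2 in coding sequence, at 70.7% of aligned bases. Levels were 11.7, 14.2 and 12.4 CPM in pnet1 callus, 22.6, 27.4 and 30.7 CPM in PNET1 overexpression callus and 19.6, 21.9 and 18.9 CPM in WT callus. The groups did not overlap in either comparison. HDG1 fell 1.58-fold in pnet1 (log2 fold change -0.66, SE 0.11, adjusted p = 0.000458 by edgeR) and rose 1.34-fold with overexpression (log2 fold change 0.42, SE 0.10, adjusted p = 0.0184 by edgeR). The call with overexpression was lost without overexpression replicate 2, overexpression replicate 3, WT replicate 1 or WT replicate 3, at adjusted p of 0.0679, 0.0866, 0.0521 and 0.0886.

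HDG2 (AT1G05230, chr1:1512896-1518900, minus strand, 10 coding exons) promotes stomatal differentiation. It had 2.74, 2.83 and 2.64 CPM in pnet1 callus, 6.32, 10.1 and 11.2 CPM in PNET1 overexpression callus and 8.10, 8.08 and 5.74 CPM in WT callus. The pnet1 libraries were nearly equal and well below WT, whereas overexpression replicate 1 fell inside the WT range. HDG2 fell 2.66-fold in pnet1 (log2 fold change -1.41, SE 0.22, edgeR adjusted p = 0.000341). It was not called with overexpression (log2 fold change 0.34, SE 0.19, edgeR adjusted p = 0.282), but was without overexpression replicate 1 (adjusted p = 0.012).

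HDG5 (AT5G46880, chr5:19030844-19035959, plus strand, 10 coding exons) had the lowest log2 fold change of the 10 in pnet1. Its levels were 2.40, 2.66 and 2.75 CPM in pnet1 callus, 8.54, 11.5 and 13.9 CPM in PNET1 overexpression callus and 7.79, 8.02 and 7.12 CPM in WT callus. All overexpression libraries lay above WT and all pnet1 libraries below it. HDG5 fell 2.93-fold in pnet1 (log2 fold change -1.55, SE 0.18, edgeR adjusted p = 1.09e-05), a lower log2 fold change than all but 1.92% of tested genes. It rose 1.48-fold with overexpression (log2 fold change 0.57, SE 0.15, edgeR adjusted p = 0.0199). That call was lost without overexpression replicate 2, overexpression replicate 3 or WT replicate 3, at adjusted p of 0.0685, 0.133 and 0.0906, and when only these 2 groups were fitted (0.055).

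GL2 (AT1G79840, chr1:30036956-30041440, plus strand, 10 coding exons) promotes leaf hairs and represses root hairs. It had 1.88, 2.54 and 2.42 CPM in pnet1 callus, 6.15, 8.41 and 10.6 CPM in PNET1 overexpression callus and 7.73, 5.39 and 5.74 CPM in WT callus. The pnet1 libraries were all below WT, and the overexpression libraries spread from inside the WT range to above it. GL2 fell 2.76-fold in pnet1 (log2 fold change -1.47, SE 0.23, edgeR adjusted p = 0.000225). Its log2 fold change with overexpression was 0.41 (SE 0.19, adjusted p = 0.179 by edgeR), and the adjusted p was 0.0151 without overexpression replicate 1.

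HDG12 (AT1G17920, chr1:6161870-6165820, minus strand, 10 coding exons) acts with HDG11 on leaf hair branching. Levels were 3.37, 2.72 and 2.91 CPM in pnet1 callus, 7.04, 7.15 and 8.09 CPM in PNET1 overexpression callus and 6.12, 4.25 and 4.31 CPM in WT callus. The groups did not overlap, and WT replicate 1 stood above the other WT libraries. HDG12 fell 1.64-fold in pnet1 (log2 fold change -0.71, SE 0.18, adjusted p = 0.00506 by edgeR) and rose 1.51-fold with overexpression (log2 fold change 0.60, SE 0.16, adjusted p = 0.0208 by edgeR). The rise was lost without overexpression replicate 2 or 3, or without WT replicate 2 or 3, at adjusted p of 0.0521, 0.0932, 0.082 and 0.106.

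HDG11 (AT1G73360, chr1:27578421-27582685, minus strand, 10 coding exons), known for its part in leaf hair branching and drought tolerance, stayed within a narrower range than the genes above. It had 7.70, 7.85 and 8.68 CPM in pnet1 callus, 9.48, 9.44 and 7.98 CPM in PNET1 overexpression callus and 9.55, 9.10 and 9.89 CPM in WT callus. The pnet1 libraries were below WT by a small margin, and overexpression overlapped both other groups. HDG11 did not pass the test in pnet1 (log2 fold change -0.24, SE 0.11, edgeR adjusted p = 0.121) or with overexpression (-0.09, SE 0.11, edgeR adjusted p = 0.665). HDG11 and HDG12 share 80.4% of aligned coding bases, with a longest exact run of 29 bases.

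HDG7 (AT5G52170, chr5:21196602-21202664, plus strand, 8 coding exons) was the member with the lowest level per length in WT. Its levels were 3.14, 4.31 and 3.68 CPM in pnet1 callus, 5.16, 4.98 and 4.31 CPM in PNET1 overexpression callus and 3.94, 4.01 and 4.36 CPM in WT callus. Both lines overlapped WT. HDG7 was not called in pnet1 (log2 fold change -0.15, SE 0.16, edgeR adjusted p = 0.543) or with overexpression (0.23, SE 0.16, adjusted p = 0.385 by edgeR). The gene overlaps 116 bases of AT5G52200 on the opposite strand, which had 505 to 607 counts a library, and without a stated strand setting reads of both there cannot be told apart. It also overlaps AT5G52180 by 1571 bases and AT5G52190 by 913 bases on the opposite strand, and both had 0 counts in all libraries. The same limit holds for HDG2, HDG12 and GL2. HDG2 overlaps AT1G04353 by 1667 bases (0 to 1 counts a library) and HDG12 overlaps AT1G05357 by 280 bases, both on the opposite strand. GL2 overlaps AT1G79850 by 198 bases on the opposite strand and AT1G09927 by 155 bases on the same strand. The last 3 had 0 counts.

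**Figure D3:**
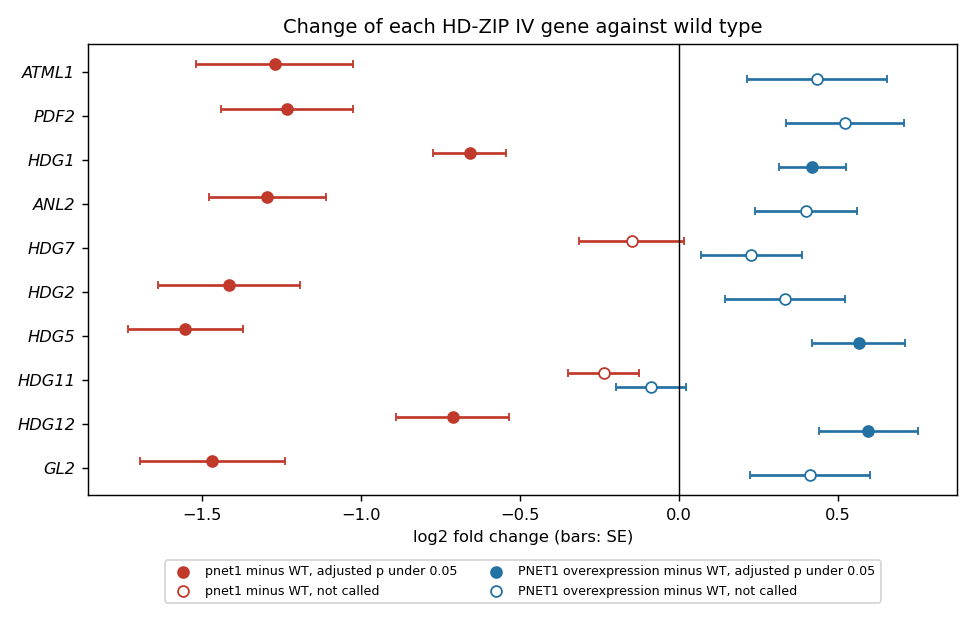
Log2 fold change against WT of each HD-ZIP IV gene in pnet1 (red) and with PNET1 overexpression (blue), with bars of 1 SE and filled points for adjusted p under 0.05. The 8 filled pnet1 points lie between -1.55 and -0.66, and the 3 filled overexpression points (HDG1, HDG5 and HDG12) between 0.42 and 0.60.

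Set directly against pnet1, overexpression callus was higher for 8 of the 10 members, each at least 2-fold, and lower for 0, against 23.0% of tested genes higher and 20.6% lower. The count of 0 from edgeR was also 0 at an unadjusted p under 0.05, in DESeq2 and in limma-voom. The differences ran between 1.08 for HDG1 (SE 0.11, adjusted p = 1.25e-06 by edgeR) and 2.12 for HDG5 (SE 0.17, edgeR adjusted p = 4.62e-08) on the log2 scale. HDG7 (log2 fold change 0.38, SE 0.16, adjusted p = 0.0678 by edgeR) and HDG11 (0.15, SE 0.11, edgeR adjusted p = 0.307) were not called. HDG7 passed without pnet1 replicate 2 (0.0396) and with the GC and length offset (0.0292). This comparison shares its libraries with both others.

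HDG8 was the only other family member with enough counts to test. It had 3.07 ± 0.278 CPM in pnet1 callus, 11.9 ± 1.59 CPM in PNET1 overexpression callus and 10.2 ± 1.66 CPM in WT callus (SD, n = 3 each). It fell in pnet1 (log2 fold change -1.72, SE 0.16, adjusted p = 1.44e-06 by edgeR) and was not called with overexpression (0.23, SE 0.13, edgeR adjusted p = 0.278). HDG3, HDG4, FWA, HDG9 and HDG10 had 0 to 7 counts a library and were not tested.

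Between genes, levels were compared as deposited FPKM, which is per gene length. In pnet1 callus PDF2 had 6.40 ± 0.754 FPKM and ATML1 4.44 ± 0.927 FPKM (SD, n = 3), with no overlap between them. HDG1, at 4.04 ± 0.401 FPKM, ranked above ANL2, at 3.40 ± 0.595 FPKM, though their libraries overlapped. HDG11 at 2.30 and HDG12 at 0.935 FPKM ranked above HDG5, HDG7, GL2 and HDG2, which lay between 0.765 and 0.660 FPKM and overlapped from each to the next. In PNET1 overexpression callus the order was PDF2 at 21.6, ATML1 at 14.5, ANL2 at 11.0 and HDG1 at 8.54 FPKM, each overlapping the next. HDG5 at 3.34, GL2 at 2.62, HDG11 at 2.55, HDG12 at 2.32 and HDG2 at 2.23 FPKM also overlapped from each to the next, and HDG7 was apart at 0.967 FPKM.

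In WT callus PDF2 was the most abundant at 15 ± 2.37 FPKM, then ATML1 at 10.6 ± 1.9, ANL2 at 8.30 ± 0.971 and HDG1 at 6.35 ± 0.487 FPKM (SD, n = 3). The PDF2, ATML1 and ANL2 libraries overlapped from each to the next in this order, and ANL2 was apart from HDG1. HDG11 followed at 2.69 ± 0.115 FPKM, apart from its neighbours on both sides. HDG5, GL2, HDG2 and HDG12 came next at 2.24, 1.95, 1.75 and 1.52 FPKM, each overlapping the next, and HDG7 was apart at 0.819 ± 0.0448 FPKM. ANL2 ranked below HDG1 in pnet1 and above it in WT, and the last place was held by HDG2 in pnet1 and by HDG7 in WT.

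The 10 genes together summed to 21.6, 27.2 and 24.4 FPKM in pnet1 callus, 56.2, 70.0 and 83.0 FPKM in PNET1 overexpression callus and 56.1, 53.3 and 44.3 FPKM in WT callus. All pnet1 sums were below the WT sums, and overexpression replicate 1 was nearly level with WT replicate 1. ATML1 and PDF2 together made up 42.6%, 45.9% and 44.5% of that sum in pnet1, 50.0%, 52.1% and 52.8% with overexpression and 52.0%, 50.2% and 47.1% in WT. Their share was lower in every pnet1 library than in every WT library. HDG11 made up 9.49% ± 1.12 in pnet1, 3.79% ± 1.01 with overexpression and 5.32% ± 0.864 in WT (SD, n = 3 each). The FPKM ratio of HDG11 to ATML1 was 0.602, 0.409 and 0.583 in pnet1, 0.241, 0.182 and 0.130 with overexpression and 0.219, 0.233 and 0.326 in WT. HDG11 thus stood higher beside ATML1 in pnet1 than in either other group. The ratio of ANL2 to HDG1 was 0.774, 0.901 and 0.838 in pnet1, 1.29, 1.19 and 1.38 with overexpression and 1.42, 1.30 and 1.20 in WT. In both ratios the pnet1 libraries did not overlap the WT libraries, and the difference was not tested. In bulk tissue, fewer cells of a type and less RNA per cell cannot be told apart.

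**Figure D4:**
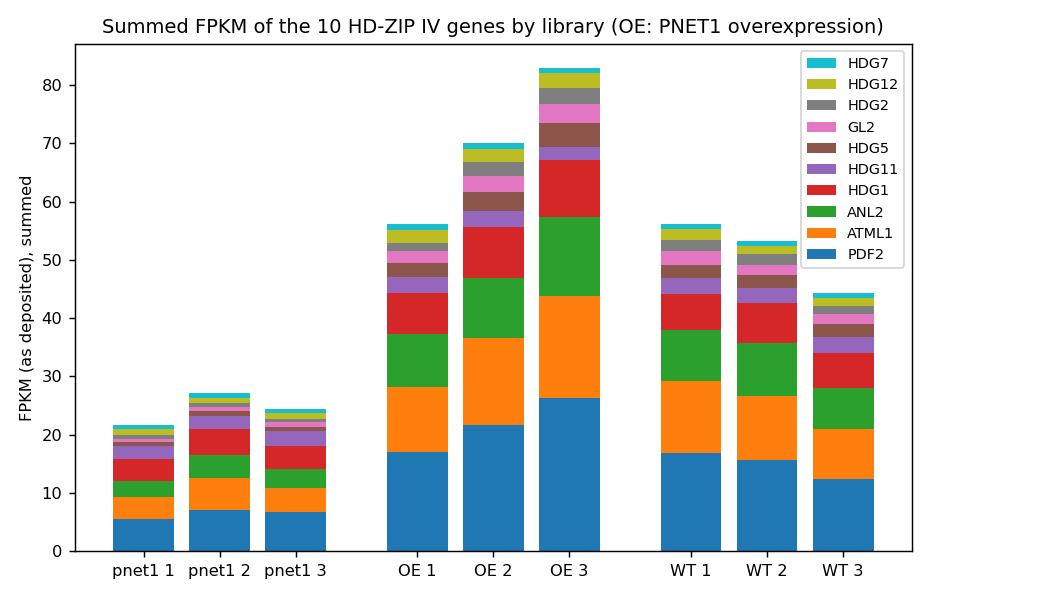
Deposited FPKM of the 10 HD-ZIP IV genes stacked for each library, grouped as pnet1, PNET1 overexpression (OE) and WT. The pnet1 bars reach 21.6 to 27.2 FPKM, the overexpression bars 56.2 to 83.0 FPKM and the WT bars 44.3 to 56.1 FPKM, with PDF2 and ATML1 as the lowest segments.

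Likeness between profiles was measured as the root mean square distance between log2 CPM values over the 9 libraries, each gene centred on its own mean, and is a description across libraries that share the 3 genotypes. Among the members ATML1 was closest to PDF2 (0.083) and ANL2 (0.086), and HDG5 and HDG11 were the farthest apart (0.826). HDG7 was closest to HDG11 (0.171), and HDG1 to HDG12 (0.243). Of 17347 other genes with a mean of at least 2 CPM, the 5 closest to ATML1 were AT2G34170 (0.077), CRR7 (0.080), GLU1 (0.080), PETE1 (0.088) and CYP96A12 (0.088), where the median over all was 0.776. The 5 closest to GL2 were AT2G34810 (0.104), LACS1 (0.112), SCPL10 (0.119), PLGG1 (0.12) and AT3G23530 (0.126), beside a median of 0.831.

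Genes that earlier work reports as targets of these factors mostly fell in pnet1 too. Of 7 such genes 6 fell and 0 rose, with a median log2 fold change of -1.14. In pnet1 17.4% of all tested genes were lower and 12.6% higher, and with overexpression 5.24% were lower and 5.97% higher (edgeR). These shares stand beside each list below as well, and are for edgeR adjusted p under 0.05. Counts at an unadjusted p, in DESeq2 or in limma-voom have no such share beside them. CER6, an enzyme of wax elongation, had 25 ± 2.76 CPM in pnet1 callus and 72.8 ± 13 CPM in WT callus (SD, n = 3 each), a log2 fold change of -1.54 (SE 0.24, edgeR adjusted p = 0.00346). FDH fell by 1.26 (SE 0.19), the lipid transfer protein gene LTP1 by 1.25 (SE 0.13) and PDF1, which encodes a protein of the outer cell layer, by 1.14 (SE 0.13) on the log2 scale. LGO, a cell cycle inhibitor of giant sepal cells, was not called, at 9.39 ± 1.07 CPM in pnet1 callus and 9.38 ± 0.429 CPM in WT callus. With overexpression 2 of the 7 rose and 0 fell: BDG1, needed for the cuticle, by 0.47 (SE 0.10, adjusted p = 0.00871 by edgeR) and the receptor kinase gene ER by 0.54 (SE 0.13, adjusted p = 0.0416 by edgeR). The counts of 0 were also 0 at an unadjusted p under 0.05, in DESeq2 and in limma-voom.

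Of 30 cuticle genes 24 were tested, and in pnet1 all 24 fell, against 17.4% of all tested genes lower. Their median log2 fold change was -1.21. CER1, which acts in alkane synthesis, had 15.9 ± 2.65 CPM in pnet1 callus and 43.8 ± 7.67 CPM in WT callus (SD, n = 3 each). Its log2 fold change was -1.46 (SE 0.22, edgeR adjusted p = 0.00242). CER2, another wax gene, fell by 1.47 (SE 0.18) and the wax transporter gene CER5 by 1.43 (SE 0.22) on the log2 scale. SHN2, an activator of wax genes, rested on 2, 1 and 1 counts in pnet1 and 21, 16 and 15 counts in WT, a ratio of 0.08 with an exact 95% counting interval of 0.021 to 0.217, which covers counting error only. SHN2 passed the filter on low counts only through WT and overexpression, so its place among the 24 rests on the groups where it was high. With overexpression 8 cuticle genes rose and 0 fell, against 5.97% of all tested genes higher and 5.24% lower. That 0 was 0 at an unadjusted p under 0.05, in DESeq2 and in limma-voom too. CER2 was among those that rose (log2 fold change 0.56, SE 0.15, edgeR adjusted p = 0.0272), whereas CER1 had a log2 fold change of 0.39 (SE 0.19, edgeR adjusted p = 0.25).

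Of 15 stomatal lineage genes 12 fell in pnet1, against 17.4% of all tested genes, with a median log2 fold change of -1.31 over the 15. The lineage regulators MUTE and FAMA had log2 fold changes of -2.42 (SE 0.48, adjusted p = 0.000987 by edgeR) and -1.86 (SE 0.23, adjusted p = 1.66e-05 by edgeR), and MUTE rested on 1, 4 and 7 counts in pnet1. SDD1, a protease that limits stomatal number, fell by 1.79 (SE 0.22), and EPF1, a peptide of stomatal spacing, by 1.76 (SE 0.37) on the log2 scale. EPF1 had 8, 5 and 6 counts in pnet1. MUTE and EPF1 passed the filter on low counts only through WT and overexpression, the groups where they were high, and are among the 12. With overexpression 8 of 15 rose and 1 fell, MYB88, named after its value was seen (log2 fold change -0.25, SE 0.07, edgeR adjusted p = 0.0313). FAMA was not called there (log2 fold change 0.47, SE 0.18, edgeR adjusted p = 0.096), nor was MUTE (0.57, SE 0.33, edgeR adjusted p = 0.286).

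Genes of leaf hair and root hair formation are given because GL2 acts on both kinds of hair. Of all tested genes 17.4% were lower and 12.6% higher in pnet1. Of 12 regulators of hair patterning 8 were tested, with a median log2 fold change of -0.75 in pnet1 and 0.43 with overexpression. In pnet1 3 fell. TTG2, a WRKY factor of leaf hairs, fell by 1.77 (SE 0.23) on the log2 scale. The MYB gene MYB23 fell by 0.99 (SE 0.32) and the bHLH gene EGL3 by 0.82 (SE 0.15). MYB23 had 9, 14 and 23 counts in pnet1. It passed the filter on low counts only with WT and overexpression, where it was higher, and is among the 3. With overexpression 0 of the 8 were called by edgeR, DESeq2 or limma-voom, and 3 were higher at an unadjusted p under 0.05. ETC2, among those 3, had 4, 8 and 4 counts in pnet1, 19, 20 and 14 with overexpression and 10, 8 and 9 in WT. It passed the filter on low counts only through overexpression, the group where it was high, and enters both medians. Of 3 tested bHLH genes of root hairs, LRL1 rose in pnet1 (log2 fold change 0.46, SE 0.08, adjusted p = 0.000532 by edgeR), and RHD6 (0.10) and LRL2 (0.03) were not called. With overexpression 0 of the 3 were called by edgeR, DESeq2 or limma-voom, or at an unadjusted p under 0.05.

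Signalling genes that act with ATML1 and PDF2 at the embryo and shoot surface were mixed. Of 8 listed 5 were tested, and in pnet1 2 fell and 1 rose, against 17.4% of all tested genes lower and 12.6% higher. TWS1, the precursor of a peptide for cuticle integrity, had 1.43 ± 0.310 CPM in pnet1 callus and 3.35 ± 0.583 CPM in WT callus (SD, n = 3 each), and its log2 fold change was -1.22 (SE 0.23, edgeR adjusted p = 0.000583). ACR4, a receptor kinase of the outer layer, fell by 0.49 (SE 0.12, edgeR adjusted p = 0.004). DEK1, a calpain needed for the epidermis, had a log2 fold change of 0.14 (SE 0.05, edgeR adjusted p = 0.0271). ALE1 and ZOU had 0 counts in all libraries. With overexpression 0 of the 5 were called by edgeR, DESeq2 or limma-voom, and 2 were higher and 2 lower at an unadjusted p under 0.05.

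The 6 lists of epidermal and hair genes held 7 tested targets, 24 cuticle, 15 stomatal, 8 hair patterning, 3 root hair and 5 signalling genes. Over these lists 18 genes rose and 1 fell with overexpression, against 5.97% of all tested genes higher and 5.24% lower. The count that rose was 29 without overexpression replicate 1, 11 without overexpression replicate 2, 9 without overexpression replicate 3 and 8 without WT replicate 3. In pnet1 47 fell and 2 rose, against 17.4% of all tested genes lower and 12.6% higher. The count that rose in pnet1 was 1 without pnet1 replicate 1 or 2, or WT replicate 1 or 2.

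Markers of other cell types moved in the same comparison, in which 17.4% of all tested genes were lower and 12.6% higher. All 5 mesophyll markers fell in pnet1, with a median log2 fold change of -1.27, and their summed level was 1030 to 1130 CPM in pnet1, 2720 to 3820 CPM with overexpression and 2080 to 2710 CPM in WT. RBCS1A, the small subunit of the carbon-fixing enzyme, had 652 ± 52.6 CPM in pnet1 callus and 1570 ± 213 CPM in WT callus (SD, n = 3 each), and its log2 fold change was -1.27 (SE 0.15, edgeR adjusted p = 0.0011). CAB3, a light-harvesting protein, and EPFL9, a mesophyll peptide that promotes stomata, each fell by 1.78 on the log2 scale, and RCA, which activates that enzyme, by 1.05. With overexpression 0 of the 5 were called by edgeR or limma-voom and 2 by DESeq2, and 3 were higher at an unadjusted p under 0.05.

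All 5 phloem markers rose in pnet1 by edgeR and limma-voom and 4 by DESeq2, against 12.6% of all tested genes higher by edgeR. Their median log2 fold change was 0.74. Their summed level was 293 to 327 CPM in pnet1, 178 to 221 CPM with overexpression and 177 to 213 CPM in WT. NAC086, a regulator of sieve elements, rose by 1.02 (SE 0.20, adjusted p = 0.000805 by edgeR) and SEOR1, a sieve element protein, by 0.79 (SE 0.11, edgeR adjusted p = 0.000857). Of 5 xylem markers the proteases XCP1 and XCP2 rose in pnet1, by 0.77 (SE 0.16) and 0.54 (SE 0.12) on the log2 scale. The other members, named after their values were seen, were not called: IRX3 had a log2 fold change of -0.75 (SE 0.38), CESA4 of -0.60 (SE 0.25) and VND7 of 0.53 (SE 0.23), and all CESA4 libraries of pnet1 were below WT. Summed levels of the list were 95.7 to 132 CPM in pnet1, 80.3 to 113 CPM with overexpression and 92.4 to 122 CPM in WT. Of 3 tested endodermis markers, SCR fell by 0.97 (SE 0.12), with list sums of 7.99 to 10.6 CPM in pnet1, 21.7 to 27.7 CPM with overexpression and 16.3 to 19.2 CPM in WT. Of 5 shoot meristem markers CLV3, the stem cell peptide, rose by 1.44 (SE 0.18, adjusted p = 1.74e-05 by edgeR). KNAT1 (0.04), CUC1 (-0.11) and STM (0.10) were not called. Sums of that list were 55.0 to 68.2 CPM in pnet1, 65.2 to 69.1 CPM with overexpression and 54.6 to 61.9 CPM in WT. With overexpression SCR (0.51, SE 0.11), CLV3 (0.78, SE 0.19) and KNAT1 (0.30, SE 0.08) rose on the log2 scale. CUC1 (log2 fold change -0.28, SE 0.11, edgeR adjusted p = 0.118), with all overexpression libraries below WT, and WUS (-0.38, SE 0.41, edgeR adjusted p = 0.608) were not called. Nor was STM (0.41, SE 0.15, edgeR adjusted p = 0.0929), with all overexpression libraries above WT. Of the meristem markers 3 were higher and 1 lower at an unadjusted p under 0.05. By edgeR 0 of the 5 phloem and 0 of the 5 xylem markers were called there, against 0 and 2 at an unadjusted p under 0.05, 0 and 1 in DESeq2 and 0 and 0 in limma-voom. All 5 meristem markers had counts in all 9 libraries, with WUS at 1 ± 0.179 CPM in pnet1, 0.733 ± 0.393 CPM with overexpression and 0.951 ± 0.396 CPM in WT. The part of these cell types in the HD-ZIP IV result was not tested.

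**Figure D5:**
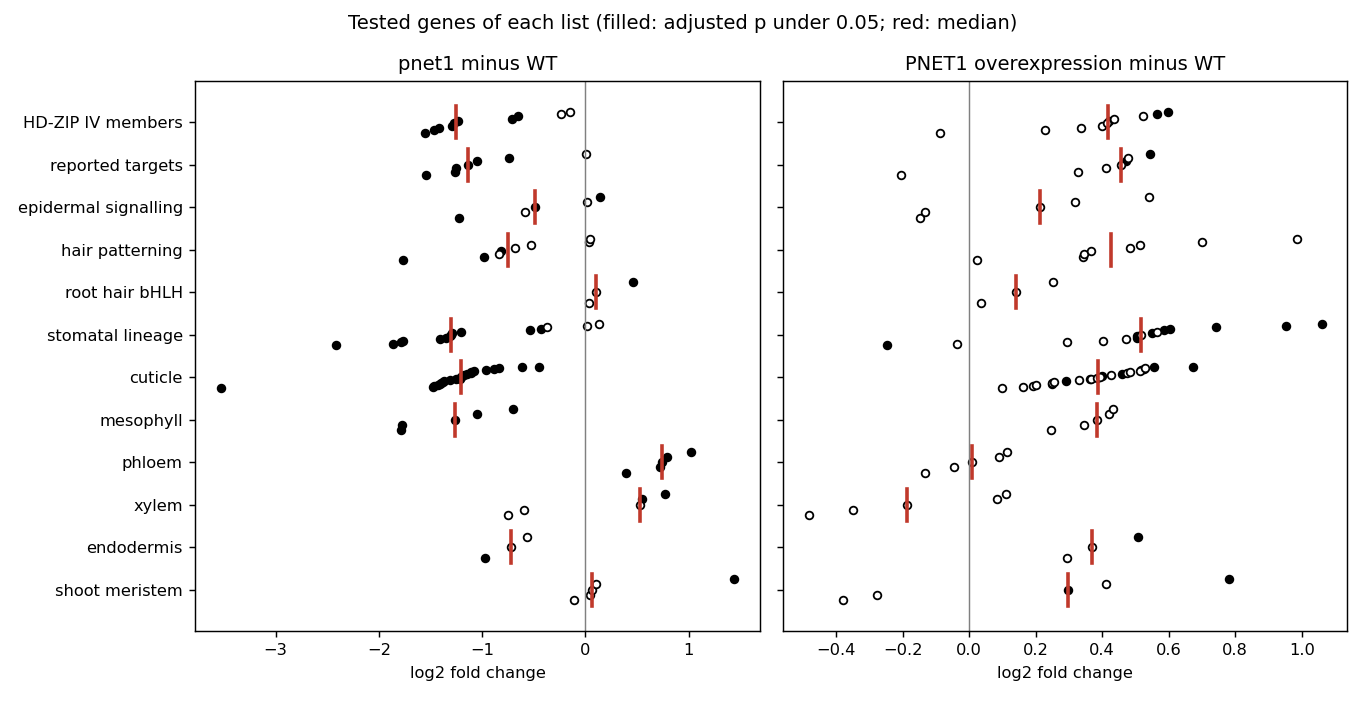
Log2 fold change of every tested gene of each list (points, filled where adjusted p is under 0.05, with small vertical offsets to separate them) in pnet1 minus WT and PNET1 overexpression minus WT, with the list median in red; the scales of the 2 panels differ. In pnet1 the medians of HD-ZIP IV (-1.25), cuticle (-1.21), stomatal lineage (-1.31) and mesophyll (-1.27) lie close together, while that of phloem (0.74) lies above 0.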

How the data were processed

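Strand-specific mRNA libraries of callus were sequenced for 3 pnet1, 3 PNET1 overexpression and 3 WT samples. The deposited table of raw counts per gene was made by the authors, and the submitters' processing notes name HISAT2 2.0.4, HTSeq 0.6.1p1 and TAIR10. Not given in the sources used here are the annotation release, strand setting and filters. The FPKM values were also deposited by the authors and were used for levels between genes. Column names gave each library's group, and the mutant columns were read as replicates 1 to 3 of 1 line. The mutant column names carry a further number, 1 in each, and whether it names an allele is not stated. PNET1 was matched to AT1G07970 from background knowledge.

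Counts were tested with edgeR 4.0.16 in R 4.3.3: filterByExpr (minimum count 10, minimum total 15) kept 19698 genes and left out 13135, TMM scaled the libraries, and 1 robust quasi-likelihood fit of all 9 libraries gave each contrast. P-values were adjusted by Benjamini-Hochberg over all tested genes, SE comes from the F statistic, and 0 rows named no gene. Alternatives were other scalings and filters, DESeq2 1.42.0, limma-voom (limma 3.58.1), fits of 2 groups, a replicate block and leaving out each library. The steps were tested on simulated data. Counting error, as a share of the value, is larger for genes with few counts.

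Positions were the same in RefSeq TAIR10.1 and the deposited table for 32532 of 32548 shared identifiers. All 10 members, the other family members, and from each list up to 4 called genes with the largest change in pnet1, or up to 2 further genes with the highest level where fewer than 2 were called, are named, as are the 5 genes closest in profile to ATML1 and to GL2. BDG1, ER, LGO, MYB88, ETC2, STM, WUS, IRX3, CESA4 and VND7 were named after their values were seen. The lists come from background knowledge of the genes. A further DNA sequence is not reported here. Members and lists were chosen with earlier results of these data known.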

Additional observations from a re-analysis of the deposited data

How the results depend on the processing

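The 8 calls among the members in pnet1 minus WT were 8 under each of 19 alternatives (other scalings, filters, tools, fits, libraries left out, and a GC and length offset chosen after seeing the data), and no result changed sign. With overexpression the members called ranged over 0 to 7 when 1 library was left out, against 3, all of them higher. Over the 6 epidermal and hair lists, genes that rose with overexpression ranged over 8 to 29, against 18, and genes that fell over 0 to 1, against 1. In pnet1, genes of these lists that rose ranged over 1 to 2, against 2. Same-numbered samples did not deviate together (correlations of -0.176 to 0.077), and differently numbered ones had correlations of -0.103 to 0.235. The labels do not say whether a number marks a shared batch or culture, and these correlations cannot decide it. A replicate block gave 8 members called in pnet1, 3 with overexpression and 8 in overexpression minus pnet1, and 14 list genes that rose with overexpression. With only the 2 groups compared, 763 genes rose and 667 fell with overexpression, against 1175 and 1033. The offset gave 4285 genes higher in pnet1, against 2480, and 6742 lower in overexpression than in pnet1, against 4052. It moved the share of called genes that were higher with overexpression to 44.7%, against 53.2%, and in overexpression minus pnet1 to 36.1%, against 52.8%, with a median of all genes of -0.10. The cause was not tested. Counts of 55 to 93 a library limit HDG7.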
